A study of Mus musculus with 24 samples.

Results

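Transcript levels in white fat were compared between mice fed no nicotinamide riboside (NR) and those control mice that resembled them on 1 pattern of variation between mice. All 12 No NR mice were set against 4 of the 12 Ctrl NR mice, animals 117, 104, 68 and 77, so that 16 of the 24 mice entered. These 4 mice were chosen by a measured value: their log2 ratio of the probe A_55_P2138100 was below -1, as it was in most No NR mice. They are called the axis-matched Ctrl NR mice, and the remaining 8 the other Ctrl NR mice. The comparison asks which differences between the diets remain once this pattern is matched.

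All mice were male C57BL/6JRcc mice, 28 or 29 weeks old, housed alone. The semi-synthetic diet gave 40% of its energy as fat, and tryptophan was held low yet adequate in both groups. As vitamin B3 it held 30 mg of NR per kg for the Ctrl NR mice and 0 mg for the No NR mice, for 18 weeks. Both groups had first been adapted to the Ctrl NR diet. The tissue was epididymal white adipose tissue, an abdominal fat depot of male mice, collected once the fasted animals had been refed for some hours. Each mouse gave 1 array. Its RNA carried Cy5 and was hybridised with a shared reference in Cy3, a mix of RNA from these mice, from mice on other diets and from 4 female samples. Values are the log2 of mouse over reference, and differences are No NR minus Ctrl NR on the log2 scale.

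NR is a form of vitamin B3. The kinases Nmrk1 and Nmrk2 phosphorylate it to nicotinamide mononucleotide, which Nmnat enzymes turn into NAD, and cells also make NAD from nicotinamide through Nampt, from nicotinic acid through Naprt and from tryptophan through the kynurenine pathway. NAD carries electrons in the oxidation of sugar and fat, and it is consumed by sirtuins, PARP enzymes and Cd38.

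The arrays lay on 5 slides. Slides 1 to 4 each held 1 axis-matched Ctrl NR mouse, with 1, 3, 3 and 2 No NR mice, and slide 5 held 3 No NR mice and no axis-matched one. Between 34.5% and 50.7% of an array's spots were well above background in Cy5. Adipocyte and macrophage markers were present: 5 of 8 adipocyte markers, among them Plin1, Fabp4 and Lep, and 7 of 7 measured macrophage markers were well above background on all 16 arrays. Of 4 markers of epididymis and testis, organs next to this depot, 0 were well above background on all 16 arrays, but Prm1 and Tnp1, proteins of sperm chromatin, were on 11. Their mean with the other measured genes of that list was 0.86 in Ctrl NR 77 and between -1.16 and -0.18 in the other 3 axis-matched mice. In RNA from whole tissue, fewer cells of a type and less RNA per cell cannot be told apart. Precision is set by how many arrays there are: the SE of a difference had a median of 0.103 against the 4 axis-matched mice and 0.0889 against the 8 others.

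The probe that chose the mice belongs to the transcript ENSMUST00000099050, which the annotation used here pairs with no gene symbol. It stood at -1.28 in Ctrl NR 117, -1.26 in 104, -1.18 in 68 and -1.42 in 77. In No NR mice it ran from -1.83 to -0.73, with a median of -1.35, and 2 of them lay above -1. The nearest Ctrl NR mouse outside the threshold was 64 at -0.08, and the other 8 reached up to 1.42. No Ctrl NR mouse therefore lay between -1.18 and -0.08. The axis-matched mice differed from the No NR mice by -0.02 in this probe and the other 8 by -2.27, which the choice itself fixed.

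**Figure D1:**
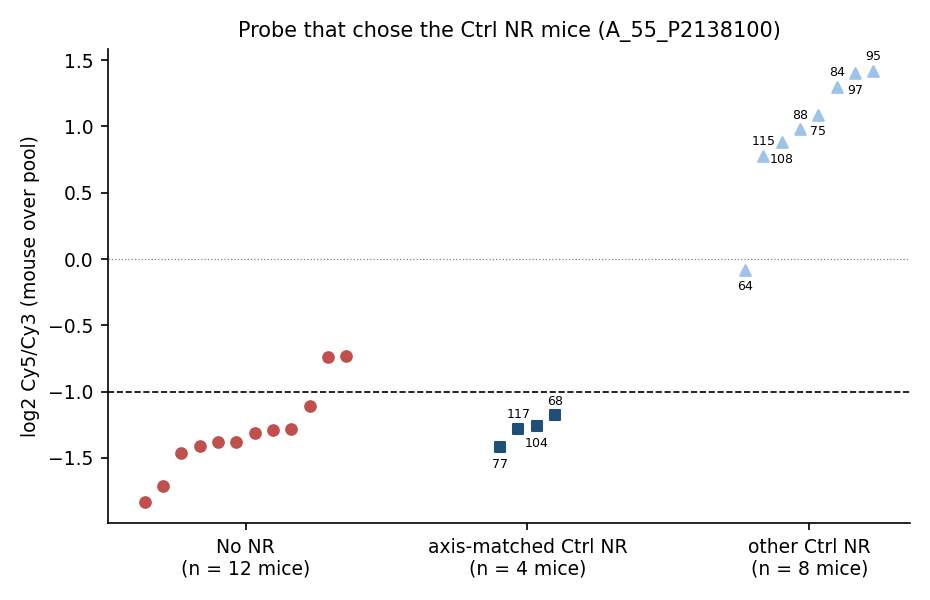
Log2 Cy5/Cy3 ratio of the probe A_55_P2138100 in each of 24 mice, in the 3 sets of mice, with the animal number beside each Ctrl NR mouse and the threshold of -1 as a dashed line. The 4 axis-matched Ctrl NR mice sit between -1.42 and -1.18, within the range of the No NR mice, and the other 8 between -0.08 and 1.42.

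A further 55 features followed or opposed this probe within the diets, with an absolute correlation of at least 0.8 over the 24 mice after removal of the diet means: 31 followed it and 24 opposed it. Because the same mice chose them, their values are a description. Against the axis-matched mice their differences ran from -0.27 to 0.35, and against the other 8 mice from -2.20 to 0.95. All 55 were smaller in size against the axis-matched mice. With symbols, they included Ino80d, which belongs to the INO80 remodeller of chromatin, and Isoc2a on the following side, and Map2k1, the kinase MEK1 of the ERK cascade, and Eif2a, a translation initiation factor, on the opposing side. The 4 Ctrl NR mice with the lowest mean of these features were the same 4 mice.

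Few features differed by much between the No NR mice and the axis-matched Ctrl NR mice. Of 21056 features, 18 lay above 0.5 and 30 below -0.5 (0.0855% and 0.142%), 48 or 0.228% in all. Against the other 8 Ctrl NR mice 447 features (2.12%) passed this size, and against all 12 Ctrl NR mice 148 (0.703%). These 3 comparisons share the No NR mice, and the 4 mice bring a larger error than the 8. The choice of the 4 mice on a measured value bears on each of these counts, so they are given without a test. The middle of all features lay at -0.01, with 45.1% of features higher and 54.9% lower.

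Both groups of 16 mice were fully separate for 13 of 20762 features with all 16 values (0.0626%), 6 higher (0.0289%) and 7 lower (0.0337%) in No NR mice. Against the other 8 Ctrl NR mice 123 features (0.592%) were separate, and against all 12 Ctrl NR mice 0. Small groups separate by chance more readily than large ones, so these counts cannot be compared across group sizes. If every order of the 16 mice were equally likely, chance alone would on average separate more features than these 13. The 13 are therefore given as a description, and no test was run on them. These counts moved with single mice. Leaving out Ctrl NR 117, 104, 68 or 77 gave 116, 64, 41 or 33 features higher by more than 0.5, and between 27 and 38 separate features higher and 33 and 37 lower. Separate features cannot become fewer when a mouse is left out, so their rise follows from the smaller group. A mean of fewer Ctrl NR mice also has a larger error, which bears on the counts over 0.5. Leaving out No NR 118, 110, 114, 78, 81 or 98 also moved at least 1 count by over 1.5 times, with 19 to 41 features higher by more than 0.5. Of the 48 features over 0.5, 11 stayed over it whichever of the 16 mice was left out, 1 higher and 10 lower.

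The genes that led the contrast of all 24 mice kept very different shares of their difference. In that contrast limma called 0 features at an adjusted p under 0.05 and 170 (0.807%) at an adjusted p under 0.10, 89 higher and 81 lower, with 2972 at an unadjusted p under 0.05. Of these 170, 147 had the same sign against the axis-matched mice and 159 a smaller size. Their median size was 0.42 in all mice, 0.18 against the axis-matched mice and 0.50 against the other 8. Among the 148 features over 0.5 in all mice, 23 were over 0.5 with the same sign against the axis-matched mice. A further 63 were under 0.25 of their size or of the other sign. Of the 148, 30 were among the features that define the pattern. Both sets of features were picked for their difference from all Ctrl NR mice, the axis-matched ones included. The axis-matched mice were in turn chosen for likeness to the No NR mice in the probe. Shared signs and smaller sizes are thus partly built in, and these counts are a description.

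Anp32a, an acidic nuclear phosphoprotein of the histone chaperone kind, kept most of its difference. It stood at 0.44, 0.05, 0.33 and -0.02 in Ctrl NR 117, 104, 68 and 77, and between -1.48 and 0.14 in No NR mice, with a median of -0.43. All 4 axis-matched mice lay above that median, but the groups overlapped. The difference was -0.74 (SE 0.277) against the axis-matched mice and -0.94 (SE 0.176) against all 12. It was lower in No NR mice within each of slides 1 to 4, by between -0.82 and -0.30. A second, dimmer probe of Anp32a gave -0.15 (SE 0.098) against the axis-matched mice and 0.08 against all 12, so the probes disagree in size and, against all 12, in direction.

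Trpm1, a cation channel known from retina and pigment cells, also kept its difference. It was at -0.03, 0.26, 0.16 and 0.07 in the 4 axis-matched mice and from 0.22 to 0.90 in No NR mice, with a median of 0.46. Only Ctrl NR 104 reached into the No NR range. The difference was 0.37 (SE 0.108) against them and 0.44 against all 12, and it had the same sign within all 4 slides. Dpy19l4, a membrane protein of the C-mannosyltransferase family, differed by 0.20 (SE 0.0511) against the axis-matched mice and by 0.23 against all.

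Mta1, part of the NuRD complex that remodels chromatin, and the retrotransposon-derived gene Rtl8a kept a smaller part. Mta1 was at -0.27, 0.06, 0.13 and -0.01 in the axis-matched mice, against -0.40 to -0.05 in No NR mice (median -0.21) and 0.14 to 0.35 in the other Ctrl NR mice. Thus 3 of the 4 axis-matched mice lay between the No NR mice and the other Ctrl NR mice, and 117 within the No NR range. The difference was -0.20 (SE 0.0795) against the axis-matched mice, -0.43 against the other 8 and -0.35 against all. On slide 1, which holds Ctrl NR 117, the sign was turned (0.22). Rtl8a gave -0.23 (SE 0.0846), -0.49 and -0.40 in the same order. Cpsf1, a pre-mRNA cleavage and polyadenylation factor, gave -0.13 (SE 0.0642), -0.40 and -0.31. For Rnu3b1, a U3 small nucleolar RNA, the values were 0.21 (SE 0.152; 0.01 without Ctrl NR 117), 0.91 and 0.67.

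In other genes the difference of all mice lay almost wholly against the other 8 Ctrl NR mice. Map2k1 was at 0.09, 0.33, 0.34 and 0.42 in the axis-matched mice and from -0.17 to 0.52 in No NR mice, with a median of 0.34. The other 8 mice lay from -0.95 to -0.51, below both. Its difference was -0.02 (SE 0.127) against the axis-matched mice, 0.95 against the other 8 and 0.63 against all. Tmem123, a membrane glycoprotein, gave 0.05 (SE 0.117), 0.86 and 0.59, and Dynlt3, a light chain of the dynein motor, gave 0.11 (SE 0.0994), 0.65 and 0.47. Cdk8, the kinase of the Mediator complex, gave 0.08, 0.56 and 0.40, and Eif2a gave 0.03, 0.65 and 0.44. On the lower side, Ino80d stood at -0.29, -0.46, -0.17 and -0.61 in the axis-matched mice, within or just beyond the No NR range of -0.64 to -0.26, and at a median of 0.45 in the other 8. Its difference was -0.08 (SE 0.0756) against -0.85 and -0.59. Chtf8, a factor of sister chromatid cohesion, gave -0.09, -0.70 and -0.49, Defb36, a beta-defensin, -0.03, -1.10 and -0.74, and Isoc2a 0.05, -1.24 and -0.81. Uqcrc1, a core subunit of respiratory complex III, gave -0.07 (SE 0.0936), -0.54 and -0.38. All genes of this paragraph were picked for a matched difference under 0.25 of that of all mice or of the other sign. Their small matched values are thus fixed by that rule. Map2k1, Ino80d, Eif2a, Defb36 and Isoc2a are also among the 56 features that define the pattern, so their small matched differences follow from the choice of mice as well.

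**Figure D2:**
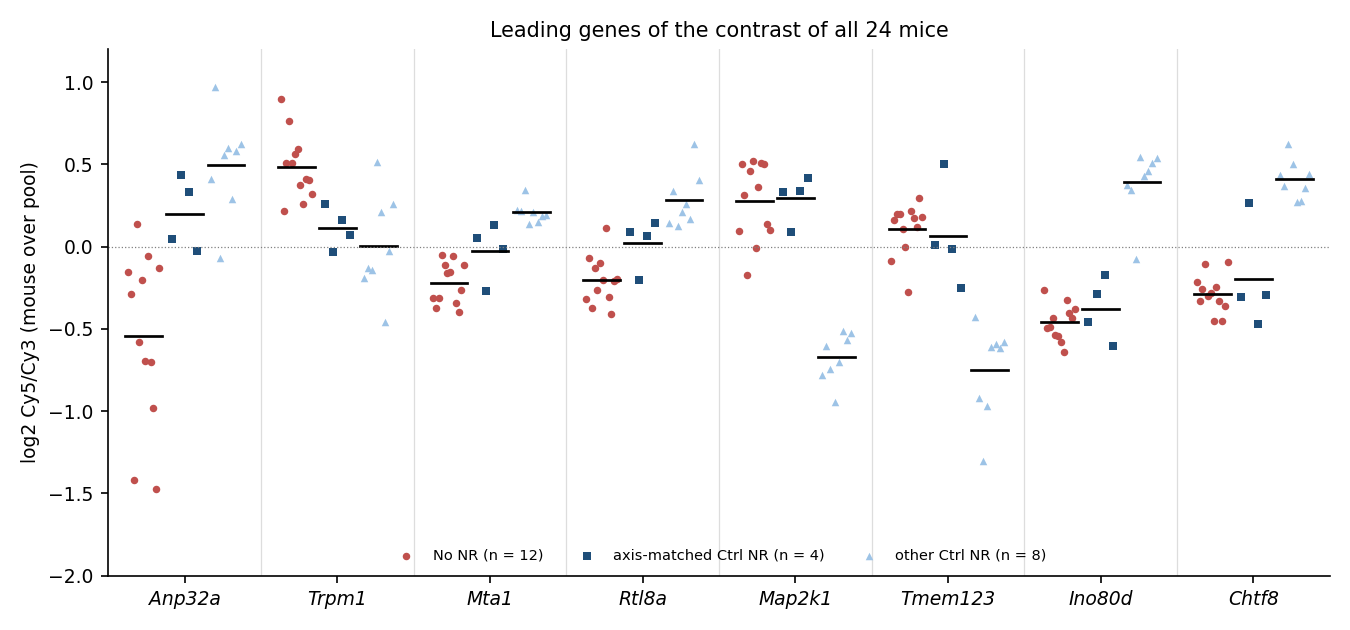
Log2 Cy5/Cy3 ratio by mouse for 8 leading genes of the contrast of all 24 mice; points are mice, bars are means, and the 3 sets of mice are given by colour and marker. In Anp32a and Trpm1 the means of the axis-matched Ctrl NR and No NR mice differ (by -0.74 and 0.37) though their ranges overlap, whereas the axis-matched values of Map2k1, Tmem123, Ino80d and Chtf8 lie mostly with those of the No NR mice, apart from Ctrl NR 117 in Tmem123 (0.50) and Chtf8 (0.27) and Ctrl NR 68 in Ino80d (-0.17).

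Of the 13 features whose No NR and axis-matched mice did not overlap, 8 have a symbol. Their sign within slides is fixed by the lack of overlap, and chance alone separates some features between groups this small. Only 1 of the 13 differed by more than 0.2 between all 12 and 12 mice. Scg3, secretogranin III of secretory granules, showed the largest difference of the 13. It was at -0.57, -0.28, -0.24 and -0.74 in Ctrl NR 117, 104, 68 and 77, below all No NR mice at -0.22 to 0.57 (median -0.16). The gap between the groups was only from -0.24 to -0.22. The difference was 0.43 (SE 0.138), against 0.12 (SE 0.113) to the other 8 mice, which overlapped the No NR mice.

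Papola, the poly(A) polymerase that adds tails to mRNA, was at -0.44, -0.26, -0.36 and -0.20 in the axis-matched mice, from -0.15 to 0.23 in No NR mice and from 0.01 to 1.22 in the other Ctrl NR mice. The No NR mice thus lay above the axis-matched mice by 0.34 (SE 0.0652) and below the other 8 on average, by -0.31 (SE 0.118). With Ctrl NR 64, the next mouse past the threshold, added to the axis-matched mice, the differences of Papola, Tdg and Pgpep1 were 0.03, 0.10 and -0.11. Tdg, a DNA glycosylase of base excision repair and DNA demethylation, showed the same order as Papola, with -0.27 to -0.14 in the axis-matched mice and -0.12 to 0.34 in No NR mice. Its difference was 0.20 (SE 0.0637) against the former and -0.13 against the other 8.

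On the lower side, Ripor2, an inhibitor of the small GTPase RhoA, was at 0.19, 0.20, 0.17 and 0.23 in the axis-matched mice, a spread of 0.03 (SD), and from -0.43 to 0.13 in No NR mice. The difference was -0.34 (SE 0.0989), while against the other 8 mice it was 0.05. Tfpi2, a secreted inhibitor of serine proteases, was at 0.25, 0.40, 0.23 and 0.20 against -0.09 to 0.18, a difference of -0.24 (SE 0.0499), but lay higher than in the other 8 mice by 0.17. Pgpep1, a peptidase that removes pyroglutamate, gave -0.22 (SE 0.0595) and 0.07 in the same order. Golga3, a Golgi matrix protein, gave -0.21 (SE 0.0564) and -0.12, with the same sign in both. Dusp18, a dual specificity phosphatase, gave -0.23 (SE 0.0541) and -0.16, but its second probe gave 0.06 against the axis-matched mice.

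**Figure D3:**
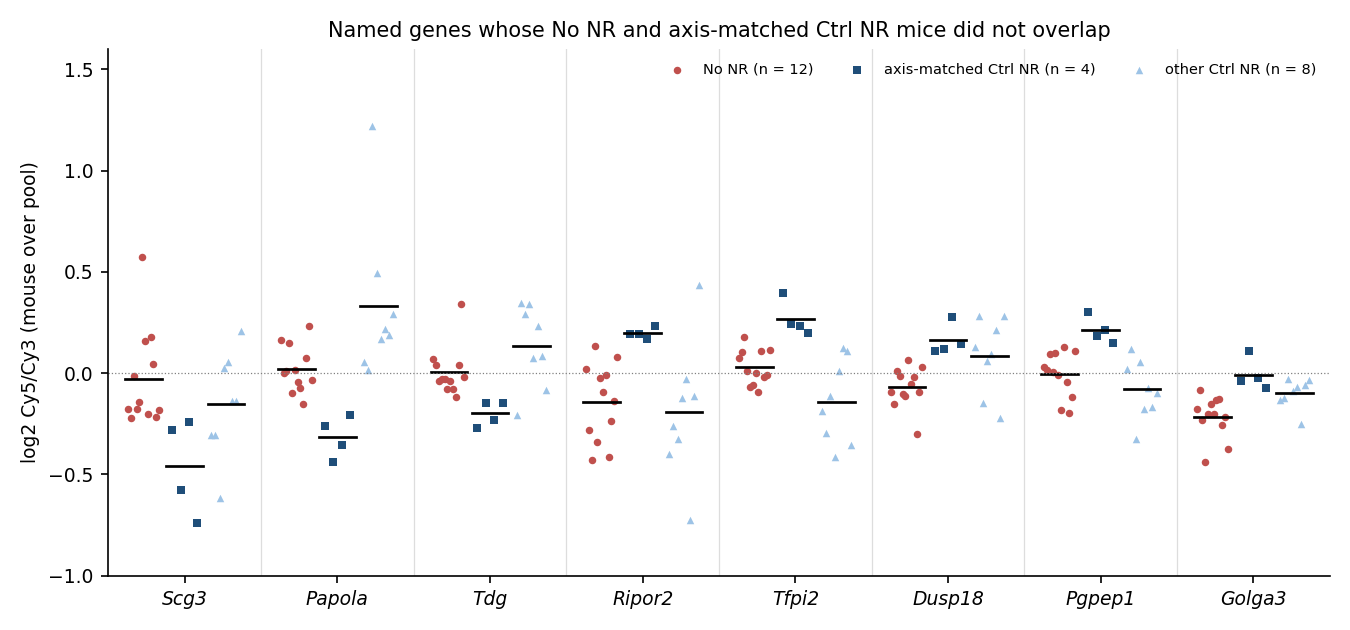
Log2 Cy5/Cy3 ratio by mouse for the 8 named genes whose No NR and axis-matched Ctrl NR mice did not overlap; points are mice and bars are means. The 4 axis-matched mice lie below all 12 No NR mice in Scg3, Papola and Tdg and above them in the other 5 genes, while the other 8 Ctrl NR mice of most genes overlap the No NR mice.

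The diet difference at a given value of the probe A_55_P2138100 was tested with every mouse and no choice of mice. The limma fit had diet and the probe as terms over all 24 mice. The probe was itself known for its diet difference in these mice, -1.52 against all 12 Ctrl NR mice. Such a covariate takes up part of the diet difference and widens its SE. The fit is thus not free of the choice of probe, and fewer calls than with diet alone follow in part from it. At an adjusted p under 0.05 the diet term called 0 of 21055 features (0%), higher or lower, and the smallest adjusted p was 1.00. At an unadjusted p under 0.05 it listed 594 (2.82%), 273 higher (1.3%) and 321 lower (1.52%), against 2972 (14.1%) with diet alone. If no feature differed, a share of 0.05 would pass this level on average, more than the 2.82% listed. The SE of the diet term had a median of 0.108, above the 0.0814 of the contrast without the probe.

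None of the genes with the lowest p-values in this fit passed the threshold, and the lowest of all belonged to probes without a symbol. Among named genes Scg3 had the lowest, with a diet term of 0.48 (95% interval 0.23 to 0.73, limma adjusted p = 1.00). Pnma2, a paraneoplastic antigen gene derived from a retrotransposon, was at -0.15, 0.35, 0.20 and 0.00 in the axis-matched mice and from 0.03 to 1.21 in No NR mice. Its diet term was 0.55 (0.23 to 0.87) and its matched difference 0.44 (SE 0.165). Pinx1, an inhibitor of telomerase, had a matched difference of 0.34 (SE 0.12) and a diet term of 0.45 (0.19 to 0.71). For Sox5, a transcription factor, these were 0.32 (SE 0.121) and 0.39, and for Cmya5, a muscle scaffold protein, 0.40 (SE 0.137) and 0.44, although a dimmer probe of Cmya5 gave 0.04. Among No NR mice, animal 110 had the lowest value of Trpm1, Pnma2, Pinx1 and Sox5, and animals 101, 74, 118 and 70 the 4 highest of each.

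On the lower side the fit listed first Itpk1, an inositol phosphate kinase, with a diet term of -0.40 (-0.64 to -0.16) and a matched difference of -0.33 (SE 0.106). Among the axis-matched mice, Ctrl NR 68 was high at 0.50 and 77 low at -0.24, within the No NR range of -0.44 to -0.12, and without 68 the difference was -0.18. Golga3 came next, with a diet term of -0.22 (-0.35 to -0.09). Gstm4, a glutathione S-transferase of a family with similar sequences, was at 0.24, 0.51, 0.47 and 0.59 in the axis-matched mice and from -0.15 to 0.57 in No NR mice, a difference of -0.37 (SE 0.108) with a like value within each slide (-0.46 to -0.32) and -0.26 by its second probe. Daxx, a histone chaperone, differed by -0.34 (SE 0.107) and Cyp2c70, a cytochrome P450, by -0.31 (SE 0.102). Against the other 8 mice these 3 genes differed by -0.10, -0.01 and -0.04.

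Genes of the NAD pathways differed by at most 0.25 in size. Of 15 measured genes of NAD synthesis and salvage, 5 lay above and 10 below 0, beside 45.1% and 54.9% of all features. Their median difference was -0.06, beside -0.01 for all features. Their list mean was between -0.03 and 0.01 in the axis-matched mice and between -0.14 and -0.01 in No NR mice. In the fit with the probe, 0 of 15 were at an unadjusted p under 0.05, likewise 0 of 21 NAD consumers and nicotinamide-clearing enzymes and 0 of 5 genes of the kynurenine pathway. With 2.82% of all features at that level, counts of 0 in lists this short say nothing particular about them. Nmrk1, the kinase that takes up NR into NAD synthesis, was at 0.21, 0.13, 0.21 and 0.30 in the axis-matched mice and from -0.13 to 0.21 in No NR mice. Its mean was lower in No NR mice by -0.19 (SE 0.0622) against the axis-matched mice, and higher by 0.08 against the other 8. With Ctrl NR 64 added to the axis-matched mice it was -0.06. In the fit over all mice the diet term was -0.12 (-0.29 to 0.06).

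Nampt, the rate-limiting enzyme of salvage from nicotinamide, was at 0.40, 0.09, 0.31 and 0.01 in the axis-matched mice against -0.12 to 0.37 in No NR mice (median 0.03), with a difference of -0.14 (SE 0.0774). Pnp, a phosphorylase that can split NR, was at 0.12, 0.32, 0.24 and -0.12, within or just above the No NR range of -0.36 to 0.28. The other 8 mice lay lower, from -0.71 to -0.21. Its difference was -0.22 (SE 0.115) against the axis-matched mice and 0.36 (SE 0.0832) against the other 8. Nt5c2, a nucleotidase, showed the same turn of sign, with -0.24 and 0.20. With Ctrl NR 64 added, Pnp and Nt5c2 differed by -0.05 each. Naprt, Nadsyn1 and Nmnat1 differed by 0.00, -0.02 and -0.10 against the axis-matched mice, and Nmnat3, the mitochondrial adenylyltransferase, by 0.14 (SE 0.165).

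Among the users of NAD, 9 of 21 were higher and 12 lower, beside 45.1% and 54.9% of all features. Sirt3, the main deacetylase of mitochondria, differed by -0.17 (SE 0.178) and by -0.34 against the other 8, and Sirt4, also mitochondrial, by -0.22 (SE 0.0846) but by -0.03 with its dimmer probe, while Sirt1 stood at 0.00. Parp1 and Cd38 differed by -0.08 and -0.14. Nnmt, which methylates nicotinamide, differed by -0.21 (SE 0.184), and Aox1, which oxidises its product, by 0.04. In the kynurenine pathway 1 of 5 genes was higher: Afmid at 0.12, against Kyat3 at -0.25 (-0.14 without Ctrl NR 77) and Haao at -0.07. Hcar2, the receptor for nicotinic acid, differed by 0.13 (SE 0.0962), and by 0.01 with its dimmer probe.

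Of the 24 genes fixed by name, leptin differed most in sign and size with the Ctrl NR mice used. Lep, the hormone that fat cells release in step with their fat stores, was at 0.45, 0.71, 0.35 and 0.29 in the axis-matched mice. In No NR mice it ran from -0.22 to 0.36, with a median of 0.13, and in the other 8 Ctrl NR mice from -0.99 to 0.27. The axis-matched mice thus lay near or above the top of the No NR range, whereas the median of the other 8, -0.50, lay below its lowest mouse. The difference was -0.32 (SE 0.0984) against the axis-matched mice, 0.54 (SE 0.13) against the other 8 and 0.26 against all. With Ctrl NR 64 added to the axis-matched mice it was -0.03. It was negative within each of the 4 slides, between -0.60 and -0.10, and in the fit with the probe it was -0.18 (-0.52 to 0.17). Lep correlated with the probe within the diets (r = -0.62 over 24 mice, a description).

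Of 29 adipocyte genes 10 lay above and 19 below 0, beside 45.1% and 54.9% of all features. Their median was -0.08 against the axis-matched mice and -0.09 against all. The direction turned with 1 mouse: without Ctrl NR 77 the median was 0.06 with 19 higher, without 117 it was -0.22 with 4 higher, and with slide as a block it was 0.02 with 15 higher. Pparg, the master regulator of fat cells, differed by -0.11 (SE 0.133), Cebpb, an adipogenic transcription factor, by -0.27 (SE 0.186), and Adrb3, the adrenergic receptor of fat cells, by -0.37 (SE 0.464; -0.14 without Ctrl NR 77). Adipoq had a value in 3 of the axis-matched mice and differed by -0.08 (SE 0.375). Srebf1, a regulator of lipid synthesis, differed by -0.17 (SE 0.161) against the axis-matched mice but by -0.54 (SE 0.18) against the other 8. Of 52 genes of oxidative phosphorylation 40 were lower (54.9% of all features were), by a median of -0.05, but 28 without Ctrl NR 77 (median -0.01). Cox8b, a subunit of complex IV known from brown fat and muscle, led at -0.42 (SE 0.173), followed by Cox8a at -0.26 (SE 0.252), which has a value in 3 of the axis-matched mice and gave -0.07 with its second probe. In Cox8b only Ctrl NR 117, at -0.59, lay within the No NR range of -1.08 to -0.18. Ppargc1a, a coactivator of mitochondrial biogenesis, differed by 0.02, and the clock gene Nr1d2 by 0.21 (SE 0.0942).

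**Figure D4:**
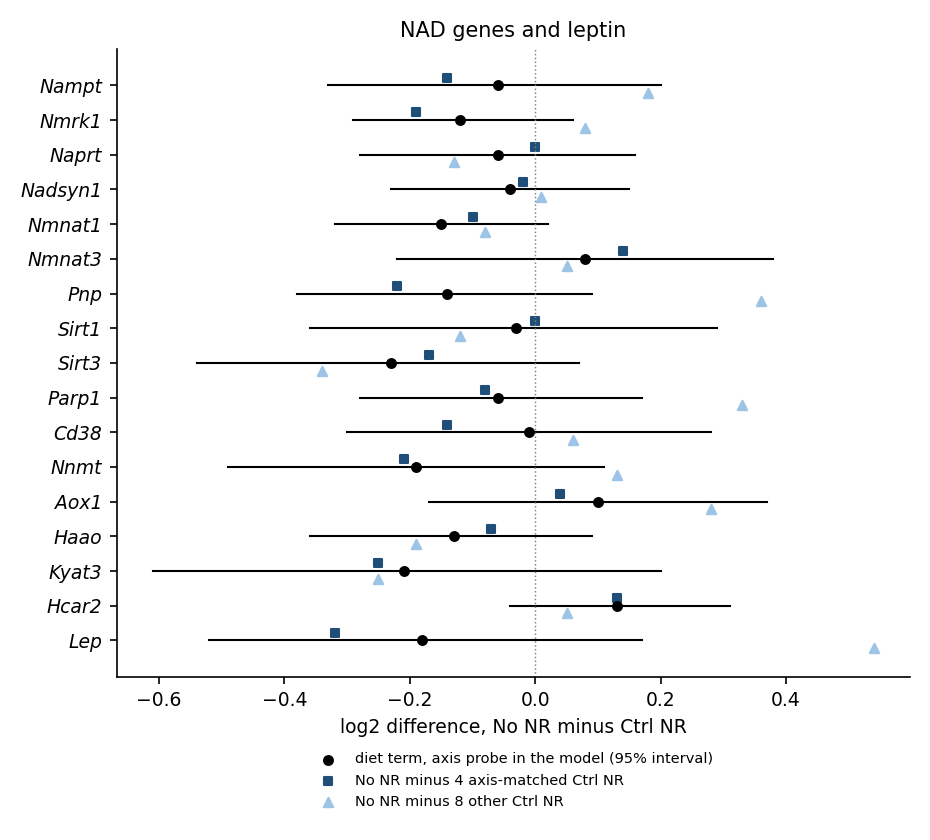
Log2 difference, No NR minus Ctrl NR, of 16 genes of NAD synthesis, use and sensing and of Lep: dark squares against the 4 axis-matched and light triangles against the 8 other Ctrl NR mice, and black points with bars the diet term and its 95% interval in the fit with the axis probe over 24 mice. Every interval crosses 0, and Lep and Pnp show opposite signs against both sets of Ctrl NR mice (-0.32 and 0.54, -0.22 and 0.36).

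Gene lists for cell types differed in how much their values changed between the sets of Ctrl NR mice, and whether they follow the probe was not tested. Against the axis-matched mice 45.1% of all features were higher and 54.9% lower, the shares to set beside each list count below. Of 30 macrophage genes 28 were higher in No NR mice against the axis-matched mice, but by a median of only 0.09, compared with 0.40 against the other 8 and 0.34 against all. Spp1, an osteopontin, and Msr1, a scavenger receptor, led at 0.40 (SE 0.396) and 0.38 (SE 0.342), and stood at 0.24 and 0.10 without Ctrl NR 77. The list mean was 0.46, -0.58, 0.07 and -0.84 in Ctrl NR 117, 104, 68 and 77. Among the other 8 Ctrl NR mice it was -1.56, -1.38 and -1.37 in 115, 95 and 75, and between -0.27 and 0.63 in the rest. Among the No NR mice it lay between -0.98 and -0.89 in 4 mice and between 0.02 and 0.64 in 8, so the spread within each group exceeded the difference. Within slides 1 to 4 the differences of the mean were -1.39, 0.81, -0.25 and 0.65. Without Ctrl NR 104 or 77 the median was 0.00 or -0.11, and without 117 it was 0.37.

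The 25 measured cell cycle genes all lay above 0, against the axis-matched mice and against all 12 Ctrl NR mice, with a median of 0.24 in both. Of all features 45.1% were higher against the axis-matched mice, and 47.6% higher and 52.4% lower against all 12. The list mean was 0.28, -0.53, -0.14 and -0.62 in the 4 axis-matched mice and from -0.80 to 0.44 in No NR mice (median 0.09), with full overlap. Cenpe, a kinesin of the kinetochore, led at 0.47 (SE 0.358), followed by cyclin B1 (Ccnb1) at 0.42 (SE 0.26). Within slides 1 to 4 the differences of the mean were -0.64, 0.66, 0.03 and 0.41. Of the 25 genes, 18 were higher without Ctrl NR 104 (median 0.11), 20 without 77 (0.07), and 25 without 117 (0.40). Macrophage list means stood in the same order over the 4 axis-matched mice, and their part in the cell cycle values was not tested.

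Mesothelial genes, which mark the lining of the fat pad, turned their sign. All 12 measured were higher in No NR mice against the axis-matched mice, by 0.06 to 0.26 and a median of 0.09, and all 12 were lower against all 12 Ctrl NR mice, with a median of -0.21 (-0.36 against the other 8). Krt18, a keratin of epithelia, was at -0.94, -0.05, -0.80 and -1.60 in the axis-matched mice and from -1.20 to 0.39 in No NR mice, a difference of 0.26 (SE 0.291), against -0.99 to the other 8. Lrrn4 differed by 0.19 (SE 0.209). Without Ctrl NR 77 these were 0.01 and 0.00. The list mean was lowest in Ctrl NR 77 (-0.93), and without this mouse the median was -0.04, with 5 of 12 genes higher. The slide differences were -0.25, -0.15, -0.09 and 0.87, the last on the slide of Ctrl NR 77.

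Collagen and matrix genes were higher in 22 of 28, with a median of 0.19 against the axis-matched and 0.08 against the other 8 mice. Col3a1, a fibrillar collagen, differed by 0.43 (SE 0.345) and Timp1, a metalloproteinase inhibitor, by 0.42 (SE 0.334), and by 0.21 and 0.18 with Ctrl NR 64 added. Without Ctrl NR 77 the list median was 0.12. Their list mean lay between -0.47 and -0.17 in the axis-matched mice and between -0.49 and 0.24 in No NR mice, with a median of -0.03 that was above all 4. Scaling each array by its median without loess moved the middle of all features to -0.26. Under it only 3 of 30 macrophage, 13 of 25 cell cycle, 2 of 12 mesothelial and 4 of 28 matrix genes were higher, and relative to that middle the list medians were 0.01, 0.27, 0.12 and 0.10.

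**Figure D5:**
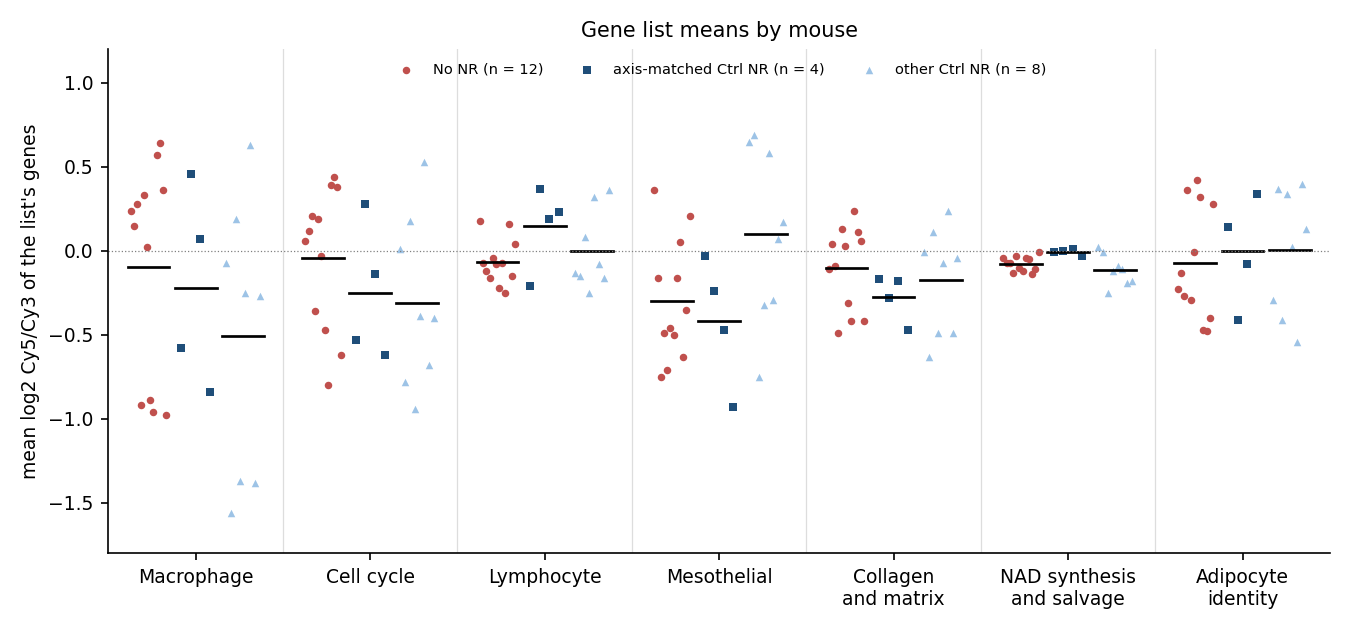
Mean log2 Cy5/Cy3 ratio of the measured genes of 7 gene lists in each mouse; points are mice, bars are means, and colours and markers give the 3 sets. The 4 axis-matched mice span most of the No NR range in the macrophage (-0.84 to 0.46) and cell cycle (-0.62 to 0.28) lists and a narrow band in NAD synthesis (-0.03 to 0.01).

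Among the 48 features over 0.5 were the lymphocyte genes Ms4a1 and Cd79b, both lower in No NR mice. Ms4a1, the B cell antigen CD20, was at 1.05, -0.56, 0.18 and 0.61 in Ctrl NR 117, 104, 68 and 77 and from -1.28 to 0.39 in No NR mice (median -0.42), a difference of -0.80 (SE 0.305). Cd79b, part of the B cell receptor, differed by -0.67 (SE 0.281). Ctrl NR 117 and 77 were the highest of the 4 in Ms4a1 and Cd79b, and without 117 the differences were -0.56 and -0.57. Cd79a, a defining B cell marker, was well above background on 0 of the 16 arrays. Of all 14 lymphocyte genes 5 lay above and 9 below 0, beside 45.1% and 54.9% of all features. Their median was -0.21, against 0.02 for the other 8 mice, and without Ctrl NR 117 it was -0.09 with 6 above 0. In the axis-matched mice the list mean was 0.37, -0.21, 0.19 and 0.23, and in No NR mice from -0.25 to 0.18. No NR 90 was the highest No NR mouse in both Ms4a1 and Cd79b.

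The remaining features over 0.5 often rested on 1 mouse; the genes named here were chosen after their values were seen. Pou2af1, a coactivator of B cells, and Fcmr, the receptor for IgM, were lower by -0.54 and -0.51, and by -0.37 and -0.35 without Ctrl NR 117. The probes A_55_P2063283 and A_55_P1956598, with no symbol here, were the only features over 1 (2 of 21056, 0.0095%), at -1.37 and -1.19, and stood at -0.65 and -0.69 without Ctrl NR 117. In these probes, Pou2af1 and Fcmr, No NR 90 was the highest No NR mouse and Ctrl NR 117 the highest axis-matched mouse. No NR 90 was also the highest No NR mouse in most other features without a symbol that were lower by over 0.5. Whether these features vary together was not tested. Prm1 and Tnp1 differed by -0.86 and -0.63, and by 0.09 each without Ctrl NR 77. On the higher side, 6 of 18 features owed their size to No NR 74, which lay more than 2 above the next No NR mouse. Among these were Tnni2, a troponin of fast muscle, at 5.89 against at most 0.35 in the other No NR mice, and the homeobox gene Hoxb3. Their differences were 0.71 and 0.50 with this mouse and 0.22 and 0.00 without it, and a second probe of Hoxb3 gave -0.04. Some others of the 18 kept most of their size without this mouse. Dcc differed by 0.56 (SE 0.248) against the axis-matched mice and by 0.63 against all 12. It stood at 0.49 without No NR 74 and at 0.37 without Ctrl NR 117, and the groups overlapped. The probe A_55_P2139430, with no symbol here, gave 0.58 (SE 0.208) and 0.58, and 0.51 and 0.44 without these mice. Chmp4b, a subunit of the ESCRT-III complex that remodels membranes, was the 1 higher feature that stayed over 0.5 without any single mouse. It was at 0.26, -0.18, -0.99 and -0.73 in the axis-matched mice, with a difference of 0.75 and a lowest value of 0.56, without Ctrl NR 68. Its difference was 0.05 against the other 8 mice and -0.14 within slide 1, and its dimmer probes gave 0.27 and 0.21 against the axis-matched mice.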

How the data were processed

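The deposited scanner files hold spot intensity from Agilent Feature Extraction 10.7.3.1, per the submitters' processing notes, with yes or no flags (other values) for outliers and for signal over background, per the file headers. Every array had the mouse in Cy5 and the pool in Cy3, so dyes were not swapped and a dye effect common to all arrays cancels in a difference. The authors' deposited value table gives log2 values that tracked log2 Cy5 intensity (r = 0.995 on Ctrl NR 115, for example) and not the ratio; each column's median was 8.04, so arrays were brought to a common level by a method not given in the sources used here. These values were tried as another setting. Median spot signals were background-corrected with normexp (offset 50) and normalized within arrays by loess in limma 3.58.1 under R 4.3.3, as mean signals are not among the columns used here. Control and outlier spots were left out and spots of a probe averaged. Of 55681 probes, 24778 had a Cy5 signal well above background in at least 6 of 12 mice of a diet. Names came from RefSeq (GRCm38.p6) by accession for 27235 probes. Genes were represented by their brightest probe, giving 13020 named genes and 8036 unnamed probes.

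Differences and their SE came from lmFit over the sets of mice compared. Since a measured value chose the 4 Ctrl NR mice, they carry no p-value. The diet term was fitted with lmFit and eBayes on diet plus the log2 ratio of the probe, with Benjamini-Hochberg adjustment over 21055 features. It was checked on simulated data with 200 of 20716 features changed. Of the features given a change of 0.5, 58.8% passed, and of those given a change of 1, 94.7%, with a median of 2 false calls. These shares depend on how many features change and by how much, so they do not give the power in the real data. Replicates are individually numbered mice, whose numbers pair nothing across diets.

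The mice, the 41 gene lists and the naming rule were chosen with earlier results of these data known. Named were, among established symbols, the non-overlapping genes well above background on at least 12 of 16 arrays, up to 6 per direction with the lowest p in either fit over 24 mice, up to 5 per direction that lost most of their difference, 24 genes fixed by name, mostly of NAD and fat-cell biology, and the 2 leading members of each list described. Alternatives changed the background correction, signals, scaling, filter, probe choice, slide (as block), array weights, the mice, the threshold and the covariate. The build in the file headers is mm9, so no coordinates are given.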

Additional observations from a re-analysis of the deposited data

Results flagged for a closer look

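Of 165 genes and list means checked, 8 are listed here, about the share that chance gives. In each, 1 of the 4 axis-matched Ctrl NR mice lay far from the other 3, with the gap to its nearest neighbour divided by the range of the 4 above Dixon's 95% critical value; chance alone gives this in about 1 of 20 groups. The values of genes were 0.843 for Rnu3b1 (Ctrl NR 117, at -0.66), 0.854 for Cpsf1 (68, at 0.17), 0.918 for Isoc2a (68, at -1.05), 0.857 for Cox8b (117, at -0.59), 0.929 for Sox18, a transcription factor of endothelium (117, at -0.28), and 0.857 for Gstm1, a glutathione S-transferase (104, at 0.44). For list means it was 0.833 for the circadian clock (68, at -0.10) and 0.875 for insulin signalling and glycolysis (117, at -0.19). Ctrl NR 117 was the mouse in 4 of these 8 items.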

How the results depend on the processing

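No paired analysis was possible because the animal numbers of the 2 diets do not overlap. The diet term with the probe called 0 features at a limma adjusted p under 0.05 in all 39 alternatives, where the smallest adjusted p ran from 0.314 to 1.00. Its count at an unadjusted p under 0.05 (594) was 1953 with median centring, 1754 with no filter and 374 with probes well above background on all 24 arrays, and ran from 491 to 910 when 1 mouse was left out. The counts of features over 0.5 (18 higher, 30 lower) and of separate features (6 higher, 7 lower) moved with many choices. Features higher by over 0.5 numbered 53 without background correction, 346 with the authors' processed signals, 0 with median centring, 44 with the authors' value table, 31 with no filter, 9 with probes above background on all 24 arrays, 28 with slide as a fixed block and 30 with array weights. Features lower by over 0.5 numbered 55, 248 and 1155 under the first 3 of these and 12 with probes above background on all 24 arrays. Separate features numbered 4 lower without background correction, 0 higher and 4 lower with median centring, 1 lower with the value table, 30 higher and 24 lower with no filter, and 3 higher and 2 lower with probes above background on all 24 arrays. With 5 Ctrl NR mice below 0, 34 features were higher and 15 lower by over 0.5, and 1 separate in each direction; with the 10 No NR mice also below -1, 38 were higher and 11 separate higher. The last pair of alternatives was chosen after seeing the data: without slide 1, 183 were higher and 54 lower, 43 and 45 separate, and without slide 5, 38 and 53, 13 and 21 separate. Leaving out 1 mouse gave 13 to 116 higher and 22 to 52 lower by over 0.5, and 6 to 38 and 7 to 37 separate. Separate features cannot become fewer when mice are left out, and filters change how many features are counted. The cause of the other moves was not tested. The number of arrays limits the precision.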

Other observations

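The list of cytosolic ribosomal proteins, which the report does not describe, was higher in No NR mice in 34 of 45 genes against the axis-matched mice. Their median was 0.04, and 45.1% of all features were higher in this comparison. Against all 12 Ctrl NR mice 21 of 45 were higher. Rpl32 and Rpl8, proteins of the large subunit, led at 0.24 (SE 0.104) and 0.22 (SE 0.131), and stood at 0.10 and 0.09 with Ctrl NR 64 added. The direction of this list turned with the scaling: 22, 18 and 16 of its genes were higher without background correction, with the authors' processed signals and with their value table, and 0 with median centring (-0.17 relative to all features).

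Stromal progenitor genes were higher in 13 of 18 (45.1% of all features were), with a median of 0.11. They were higher in only 8 of 18 without Ctrl NR 77 (-0.01) and in 1 of 18 with median centring (-0.02 relative to all features). Col15a1, a basement membrane collagen, differed by 0.49 (SE 0.192) and Clec3b, tetranectin, by 0.36 (SE 0.182), but 2 dimmer probes of Col15a1 gave 0.00. With Ctrl NR 64 added to the axis-matched mice, Col15a1 differed by -0.17 and Clec3b by 0.07. Clec3b was at -0.23, -0.77, -1.40 and -1.15 in the axis-matched mice, from -0.90 to -0.15 in No NR mice and from 0.10 to 0.83 in the other 8 Ctrl NR mice. Its difference was thus 0.36 against the axis-matched and -1.04 against the other mice, without overlap with the latter.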
